A study of Caenorhabditis elegans with 37 samples.

Results

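The 8 genes described here form the best known molecular pathway for branching of the PVD dendrite in Caenorhabditis elegans. They were chosen by name, with earlier results of these data known. Each was matched by symbol to a row of the deposited count table: dma-1, hpo-30, kpc-1, tiam-1 and eff-1 on the neuron side, and sax-7, mnr-1 and lect-2 on the ligand side. They are 8 of 30631 genes in the table, and all 8 passed the filter on low counts that left 15181 genes for testing.

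PVD is a sensory neuron for harsh touch and cold whose dendrites spread between the skin and the body-wall muscle in repeated candelabra-shaped units. The receptor DMA-1 on the dendrite is known to bind a complex of the adhesion protein SAX-7 and the protein MNR-1, presented by the skin, together with LECT-2, which is secreted largely by muscle. HPO-30 and TIAM-1 link the receptor to actin, KPC-1 is a protease that limits the amount of DMA-1 on the dendrite, and EFF-1 fuses membranes and prunes excess branches.

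RNA from 37 libraries of cells isolated by fluorescence-activated sorting was counted per gene. The labels target PVD in 2 libraries, the chemosensory neurons ASG, AWA and AWB in 4, 4 and 5, the interneurons AVE and AVG in 3 each, and the GABAergic motor neurons DD and VD in 3 and 4. The references are 5 pan-neuronal libraries, targeted with a rab-3 marker, and 4 all-cell libraries, sorted for living cells alone. All groups are untreated animals grown on plates with the bacterial strain NA22. The sources used here do not state age, strain or the reporters that mark the single types.

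Libraries are named by their group and the number in their title. Total counts were 763634 in PVD 62, 469314 in PVD 63, 3124136 to 5252601 in the pan-neuronal libraries and 251586 to 5415925 over all 37. Of 11 PVD markers, 8 had their highest mean of the 8 sorted types in PVD, among them the acetylcholine receptor genes deg-3 and des-2 and the transcription factor gene mec-3. The exceptions were F49H12.4 (81.9 CPM in PVD and 89.36 in ASG), osm-9 (254.8 CPM in PVD and 1226 in AWA) and degt-1, which had 0 counts in both PVD libraries and was at least 10.43-fold lower than in pan-neuronal libraries at a floor of 3 counts over the group. Of the 8, mec-9 and unc-86 had lower means in PVD (68.23 and 106.4 CPM) than in pan-neuronal libraries (110.5 and 199.4 CPM). The summed level of the 11 markers was 6964 CPM in PVD 62 and 13500 CPM in PVD 63, so that PVD 63 was 1.939 times PVD 62. The pan-neuronal library 1 and the all-cell library 27 stood apart in some of the 8 genes. Levels are in CPM, a gene's count over the library total scaled by its TMM factor, and are compared only within a gene.

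dma-1 (WBGene00011345, chromosome I, 8281969 to 8284477 on the plus strand of WBcel235) encodes the leucine-rich repeat receptor of the dendrite. Its level was 680.9 CPM in PVD 62 and 1345 CPM in PVD 63, against 99.29, 92.81, 87.08, 87.45 and 78.93 CPM in the 5 pan-neuronal libraries and 27.58, 14.19, 6.761 and 10.14 CPM in the 4 all-cell libraries. Both PVD libraries lay above every other library of the series, and the pan-neuronal and all-cell libraries did not overlap. The PVD mean was 11.37 times the pan-neuronal mean, a log2 difference of 3.50 ± 0.46 (SE; adjusted p = 2.434e-06 by edgeR's quasi-likelihood test with Benjamini-Hochberg adjustment over all tested genes). In bulk samples such as these, a lower level in a mixed population can mean fewer cells of a type or less RNA per cell, which cannot be told apart.

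Among the other sorted types dma-1 was highest in the interneuron AVE, with 117.7, 84.13 and 52.15 CPM. These values overlapped the pan-neuronal range, and the log2 difference of AVE from pan-neuronal libraries was -0.09 ± 0.44 (adjusted p = 0.9015). In AVE, mec-3 averaged 4.051 CPM, deg-3 4.428 CPM and des-2 6.705 CPM, against 457.7, 2112 and 3795 CPM in PVD. Another PVD marker, egl-46, was higher in AVE (67.55 CPM) than in any other type but PVD (815.5 CPM). Its pan-neuronal mean was 51.63 CPM. All 11 PVD markers summed to 126.4 to 149.4 CPM in AVE and 6964 to 13500 CPM in PVD. The part of these levels in the dma-1 values was not tested. For dma-1, AVG followed AVE with 29.93, 22.05 and 50.44 CPM. Group means of AWB, VD, DD and AWA ran from 14.5 to 5.995 CPM in that order, each overlapping its neighbour, and ASG was last at 2.768 ± 2.277 CPM (SD, n = 4).

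hpo-30 (WBGene00011014, chromosome V, 12308725 to 12310356 on the minus strand) encodes a claudin-like membrane protein. It was read at 318.6 and 552.8 CPM in PVD 62 and PVD 63, against 34.14, 37.64, 38.74, 35.63 and 44.23 CPM in pan-neuronal libraries and 4.346 to 10.03 CPM in all-cell libraries. No library outside PVD exceeded 44.23 CPM. The PVD mean was 11.44 times the pan-neuronal mean (log2 difference 3.50 ± 0.41, adjusted p = 5.443e-07) and 26.63 times that of AVE, the highest of the other types at 20.52, 7.534 and 21.02 CPM. From AVE down to ASG (1.779 ± 0.3232 CPM, SD, n = 4) the remaining types held 66 counts or fewer in a group, so that their order is poorly resolved.

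tiam-1 (WBGene00015704, chromosome I, 4409689 to 4426188 on the plus strand) encodes an exchange factor that activates Rac GTPases. PVD 62 and PVD 63 had 297.7 and 389.6 CPM, against 74.01, 61.38, 70.11, 74.79 and 65.67 CPM in pan-neuronal libraries and 5.32 to 15.21 CPM in all-cell libraries. The PVD libraries again lay above every other library, of which AWA 17 was nearest at 114.2 CPM. The PVD mean was 4.967 times the pan-neuronal mean (log2 difference 2.30 ± 0.46, adjusted p = 0.000454). The motor neuron DD, with 96.28, 47.83 and 49.31 CPM, and the chemosensory neuron AWA, with 114.2, 47.64, 25.41 and 34.22 CPM, overlapped the pan-neuronal range.

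kpc-1 (WBGene00002232, chromosome I, 11675941 to 11680975 on the plus strand) encodes a furin-like proprotein convertase. Its level was 744.4 and 1369 CPM in PVD 62 and PVD 63, against 446.1, 384.3, 369.7, 376.7 and 372.6 CPM in pan-neuronal libraries and 32.11 to 71.03 CPM in all-cell libraries. Unlike the preceding genes it was also high in AVG, at 433.1, 602.6 and 900.7 CPM, a range that overlapped PVD. PVD exceeded pan-neuronal libraries by a log2 difference of 1.43 ± 0.31 (adjusted p = 0.0009427), but without PVD 63 the difference was 0.754 and the call was lost (adjusted p = 0.184). PVD and AVG differed by 0.71 ± 0.35 (adjusted p = 0.3142), a difference called with library totals as the only scaling (0.997, adjusted p = 0.015). The gene's exons share bases with those of scrm-4 on the opposite strand, and the sources used here do not state whether counting used strand; scrm-4 averaged 9.652 CPM in PVD and 95.25 CPM in pan-neuronal libraries, and its part in the kpc-1 values was not tested.

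eff-1 (WBGene00001159, chromosome II, 8346684 to 8350563 on the plus strand), the fusion protein gene, followed another order. PVD 62 and PVD 63 had 8.329 and 13.06 CPM, from 8 and 6 counts, against 55.51, 53.68, 54.24, 53.45 and 57.84 CPM in pan-neuronal libraries and 34.26, 7.98, 14.65 and 13.52 CPM in all-cell libraries. Both PVD libraries lay below all 5 pan-neuronal libraries and within the all-cell range. It was lower in PVD than in pan-neuronal libraries (log2 difference -2.41 ± 0.54, adjusted p = 0.001486), a call lost without PVD 62 (-2.152, adjusted p = 0.0822). It was also lower than in pan-neuronal libraries in each of the other 7 types, of which VD was nearest at 26.49, 38.51, 25.99 and 26.03 CPM. Its exons share bases with those of C26D10.6 on the opposite strand, which averaged 59.0 CPM in PVD, 166.5 CPM in pan-neuronal and 36.96 CPM in all-cell libraries, and its part in the eff-1 values was not tested.

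**Figure D1:**
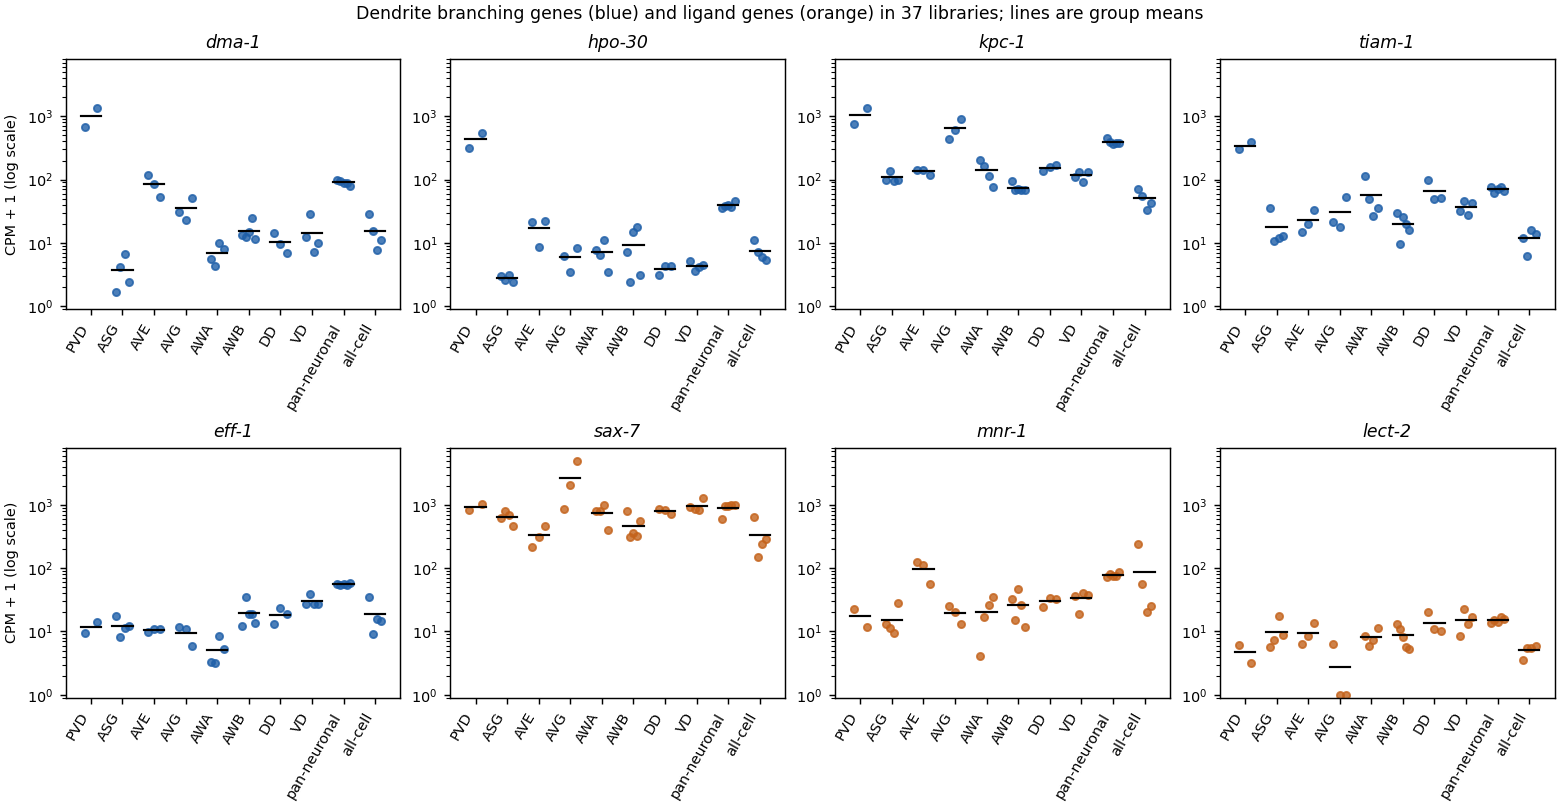
Level of each gene in every library, as CPM + 1 on a log scale, with neuron-side genes in blue and ligand genes in orange; points are libraries and lines are group means. dma-1, hpo-30 and tiam-1 stand highest in both PVD libraries, kpc-1 is high in PVD and AVG, and eff-1, mnr-1 and lect-2 are low in PVD.

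sax-7 (WBGene00004732, chromosome IV, 8062659 to 8084087 on the plus strand) encodes the worm L1 adhesion molecule, which neurons as well as skin are known to make; its exons share bases with nsy-7 and C18F3.6 on the opposite strand. It was read at 839.1 and 1029 CPM in PVD 62 and PVD 63, against 588.9, 954.2, 975.2, 978.5 and 1007 CPM in pan-neuronal libraries and 651, 147.2, 240.0 and 283 CPM in all-cell libraries. PVD and pan-neuronal libraries overlapped, with a log2 difference of 0.05 ± 0.48 (adjusted p = 0.9638). The highest group was AVG, but its libraries AVG 43, 44 and 45 were far apart at 868.9, 2023 and 5010 CPM. AVG was higher than pan-neuronal libraries (log2 difference 1.54 ± 0.41, adjusted p = 0.004509), a call lost without AVG 45 (0.534, adjusted p = 0.35). VD, DD, AWA and ASG means lay between 972.3 and 642.2 CPM, AWB averaged 468.0 ± 208.3 CPM (SD, n = 5), and AVE was lowest of the types at 214.9, 311.4 and 466.2 CPM.

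mnr-1 (WBGene00012184, chromosome V, 20654650 to 20659744 on the plus strand) encodes menorin, the partner of SAX-7 on the skin. PVD 62 and PVD 63 had 21.86 and 10.88 CPM, from 21 and 5 counts, against 70.88, 81.26, 73.43, 72.91 and 85.4 CPM in pan-neuronal libraries and 243.2, 54.97, 19.16 and 24.63 CPM in all-cell libraries. Both PVD libraries lay below all pan-neuronal libraries. It was lower in PVD (log2 difference -2.17 ± 0.79, adjusted p = 0.04302), but that call ended without either PVD library, without pan-neuronal 1, 7, 10 or 12, with DESeq2 size factors, with library totals and without the low-count filter, with adjusted p of 0.0509 to 0.186. The highest of the sorted types was AVE, which averaged 96.61 ± 35.51 CPM (SD, n = 3) with its lowest library, AVE 42, at 56.04 CPM, and overlapped the pan-neuronal range.

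The 12 body-wall muscle markers had counts in every group. Their summed level was 26830, 24410 and 20390 CPM in AVE 40, 41 and 42, and 24360, 12660, 4555 and 5352 CPM in all-cell 27, 28, 29 and 30, the first library of each being also the highest in mnr-1. It was 9241 and 7998 CPM in PVD 62 and PVD 63, against 9047 to 11910 CPM in pan-neuronal libraries, ranges that overlapped where those of mnr-1 did not. Sums reached 23140 CPM in ASG, 23040 CPM in DD and 24410 CPM in VD, where mnr-1 was at most 26.91, 33.05 and 39.15 CPM. The part of the muscle sums in the mnr-1 levels was not tested.

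lect-2 (WBGene00019407, chromosome II, 5790723 to 5794402 on the plus strand) encodes the secreted LECT-2 protein and was the lowest of the genes, with 819 counts in all libraries together. PVD 62 and PVD 63 had 5.205 and 2.176 CPM, from 5 counts and 1 count, against 12.51, 14.33, 12.91, 16.18 and 14.63 CPM in pan-neuronal libraries and 2.507, 4.433, 4.507 and 4.829 CPM in all-cell libraries. The PVD libraries lay below every pan-neuronal library, but the log2 difference of -1.81 ± 0.69 missed the threshold (adjusted p = 0.05622). It passed in the fit of the 2 groups alone (adjusted p = 0.0154) and with mitochondrial and ribosomal RNA genes left out (adjusted p = 0.0457). VD (14.38 ± 6.035 CPM, SD, n = 4) and DD (12.81 ± 5.597 CPM, SD, n = 3) overlapped the pan-neuronal range. AVG 44 and AVG 45 had 0 counts, which allows up to 7.348 and 7.206 CPM at 3 counts, and AVG 43 had 5.282 CPM.

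Set together, PVD against pan-neuronal libraries gave 4 of 8 genes higher and 2 lower, where 8.85% of all tested genes were called higher, 13.8% lower and 22.6% either way. The 5 neuron-side genes had a median log2 difference of 2.302 and the 3 ligand genes one of -1.811, against -0.095 over all tested genes. With library totals as the only scaling the all-gene median was 0.25 and the higher share of calls 53.3%, against 39.1% with TMM factors. dma-1, hpo-30 and tiam-1 were called higher under all 13 alternatives each, with log2 differences of 2.754 to 3.828, 2.89 to 3.806 and 1.928 to 2.628.

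PVD was then set against each of the other 7 sorted types directly. dma-1, hpo-30 and tiam-1 were higher in PVD in 7 of 7 contrasts and kpc-1 in 6 of 7, together 27 of 56 tests. edgeR called 0 members lower, 5 of 56 tests were lower at an unadjusted p under 0.05, and the DESeq2 Wald test called 2 lower, mnr-1 against AVE and sax-7 against AVG. Of all tested genes, 7.6% were called higher in PVD against ASG, 3.84% against AVE, 3.35% against AVG, 4.73% against AWA, 4.36% against AWB, 3.32% against DD and 4.36% against VD, and 8.79%, 4.71%, 2.6%, 6.15%, 3.38%, 1.34% and 1.45% were called lower in the same order. The log2 differences ran from 3.58 (AVE) to 8.43 (ASG) for dma-1, from 4.71 (AVE) to 7.87 (ASG) for hpo-30, from 2.42 (DD) to 4.33 (ASG) for tiam-1 and from 0.71 (AVG) to 3.84 (AWB) for kpc-1. Against DD the tiam-1 call was lost without PVD 63 (adjusted p = 0.0514). Differences of eff-1 lay between -1.49 and 1.33, of sax-7 between -1.49 and 1.50, of mnr-1 between -2.49 and 0.25 and of lect-2 between -1.82 and 0.61, and edgeR called none. sax-7 against AVE (1.50, adjusted p = 0.0692) was called higher in PVD by the DESeq2 Wald test, with DESeq2 size factors, with library totals alone and with the 2 groups fitted alone, at 1.602 to 1.695 (adjusted p of 0.00742 to 0.0331). mnr-1 against AVE was called lower also with the 2 groups fitted alone and without AVE 42, sax-7 against AVG also without AVG 43, and eff-1 against AWA was called higher without AWA 19 (1.72, adjusted p = 0.042). These contrasts share the same 2 PVD libraries.

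**Figure D2:**
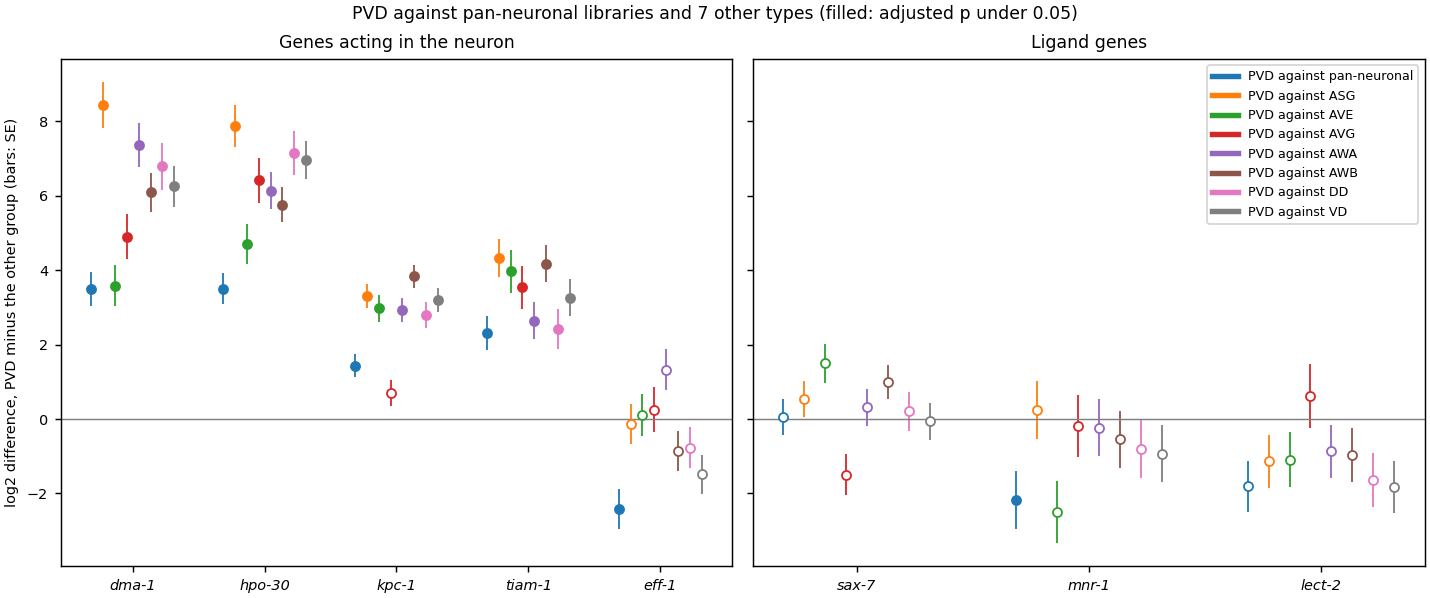
Log2 difference of PVD from the pan-neuronal libraries and from each of 7 other types for each gene, with standard errors as bars; filled points have an adjusted p under 0.05. dma-1, hpo-30 and tiam-1 are filled and above 0 in all 8 contrasts, and among the ligand genes 1 point is filled, mnr-1 against pan-neuronal libraries at -2.17.

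The other 7 types differed from pan-neuronal libraries mostly downwards: 39 of 56 tests were called lower and 2 higher, the higher ones being kpc-1 and sax-7 in AVG. The 10 pan-neuronal markers, all with counts in each group, were also lower: their summed level averaged 14280 CPM in ASG, 4328 in AVE, 6043 in AVG, 6974 in AWA, 8084 in AWB, 5376 in DD and 3413 in VD (7348 in PVD), against 18330 CPM in pan-neuronal libraries, and only ASG, at up to 19320 CPM, reached their range (16940 to 22550). The 12 hypodermis markers averaged 725.3 CPM in ASG to 3486 CPM in VD, against 593.7 CPM in pan-neuronal libraries. The part of these levels in the calls was not tested. Of all tested genes, 20.8% were called lower in ASG, 20.5% in AVE, 19.7% in AVG, 19.8% in AWA, 24.1% in AWB, 20.8% in DD and 28.5% in VD, and 16.8%, 13.1%, 11.7%, 18.1%, 19.6%, 18.3% and 27.7% higher in the same order. hpo-30 and eff-1 were lower in all 7 of these types, and dma-1 and kpc-1 in 6 each. The kpc-1 difference of AVG from pan-neuronal libraries, 0.72 ± 0.28 (adjusted p = 0.04746), lost its call without AVG 44 or 45, without pan-neuronal 7, 10, 11 or 12, without the low-count filter and without mitochondrial genes, with an adjusted p of up to 0.59. lect-2 was called lower in AVG alone, at -2.42 ± 0.63 (adjusted p = 0.003715). Of the 39 lower calls, 29 held whichever single library was left out. The other 10 were dma-1 in AVG, hpo-30 in AVE, eff-1 in VD, mnr-1 in AVG and VD, sax-7 in AVE and AWB and tiam-1 in AVE, AVG and VD, with adjusted p of 0.0511 to 0.223 where lost. The libraries concerned were AVE 40 and 41, AVG 43, 44 and 45, AWB 51, 52 and 53, all 4 of VD, and pan-neuronal 1, 7, 10 and 12.

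Pan-neuronal libraries were compared with all-cell libraries to set genes read in neurons against genes read in all cells. The 12 body-wall muscle markers summed to 9047 to 11910 CPM in pan-neuronal and 4555 to 24360 CPM in all-cell libraries. These ranges overlapped, so the contrast cannot separate genes read in neurons from genes read in muscle. The 12 hypodermis markers did not overlap, at 349.2 to 686.3 CPM in pan-neuronal and 1138 to 3911 CPM in all-cell libraries. All 5 neuron-side genes were higher in pan-neuronal libraries, and so were sax-7 and lect-2, together 7 of 8, where 32.1% of all tested genes were called higher, 26.9% lower and 59.1% either way. With library totals alone the higher share of calls was 42.6%, against 54.4% with TMM factors, and the all-gene median was -0.466 against -0.001; the 7 calls held. kpc-1 differed most, by 2.99 ± 0.29 (adjusted p = 2.687e-09), followed by dma-1 at 2.63 ± 0.45 (adjusted p = 1.245e-05), tiam-1 at 2.61 ± 0.45 (adjusted p = 1.318e-05), hpo-30 at 2.60 ± 0.42 (adjusted p = 6.02e-06) and eff-1 at 1.65 ± 0.36 (adjusted p = 0.0002869).

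On the ligand side lect-2 was higher in pan-neuronal than in all-cell libraries by 1.77 ± 0.47 (adjusted p = 0.002087) and sax-7 by 1.45 ± 0.40 (adjusted p = 0.002656). For lect-2 the all-cell libraries 27, 28, 29 and 30 held 3, 5, 8 and 10 counts. mnr-1 differed by -0.14 ± 0.52 (adjusted p = 0.8273). Its direction turned without all-cell 27, which had 243.2 CPM, to 1.245 (adjusted p = 0.026). edgeR and DESeq2 called 0 of the 8 genes lower in pan-neuronal libraries, and 0 were lower at an unadjusted p under 0.05.

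Each sorted type was also compared with all-cell libraries. Of 64 tests, 22 were called higher and 9 lower. kpc-1 was higher in 7 of 8 types, with AWB at 0.58 ± 0.27 (adjusted p = 0.09989) the exception, sax-7 in 5, tiam-1 in 4, and dma-1, hpo-30 and lect-2 in 2 each. dma-1 and hpo-30 were higher in PVD, by 6.13 ± 0.55 and 6.10 ± 0.50 (adjusted p = 1.111e-09 and 1.779e-10), and in AVE, by 2.55 ± 0.48 and 1.39 ± 0.47 (adjusted p = 0.0006448 and 0.04026). The hpo-30 call in AVE was lost without AVE 40 or 42, without all-cell 28, 29 or 30 and under 4 other alternatives (adjusted p up to 0.177). Of the other higher calls, sax-7 in PVD, AWA and DD and lect-2 in DD and VD were lost without single libraries, with adjusted p of 0.0515 to 0.189. For sax-7 these were all-cell 28, 29 or 30 in each case, and PVD 62 or 63, AWA 17, 18 or 19 and DD 83, 84 or 86. For lect-2 they were DD 83 or all-cell 27, 29 or 30 in DD, and VD 78 in VD. Called higher were 10.2% of tested genes in PVD, 19.6% in ASG, 8.54% in AVE, 10.5% in AVG, 18.8% in AWA, 16.3% in AWB, 10.8% in DD and 13.2% in VD; called lower were 8.08%, 20.2%, 6.78%, 9.73%, 13.6%, 17.3%, 8.35% and 8.2% in the same order.

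mnr-1 accounted for 5 of the 9 lower calls against all-cell libraries, in PVD, ASG, AVG, AWA and AWB. Without all-cell 27 all 5 calls were lost: the log2 difference in PVD was then -0.928 (adjusted p = 0.324), in ASG -1.179, in AVG -0.746, in AWA -0.696 and in AWB -0.387 (adjusted p from 0.0586 to 0.56). The call in PVD was also lost without PVD 62 or 63, that in AVG without AVG 44 or 45 and that in AWB without AWB 54. The lower call of dma-1 in AWA was lost without AWA 17 or 18 or all-cell 27 or 28 (adjusted p of 0.0664 to 0.254), and the other 3 lower calls held whichever single library was left out. Without the same library mnr-1 in AVE was called higher, at 1.564 (adjusted p = 0.0298).

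Levels were compared between genes per kilobase of exon. In PVD the order of mean RPKM (CPM over exon length in kilobases) was dma-1 at 485.1, hpo-30 at 445.5, kpc-1 at 352.9, sax-7 at 150.1, tiam-1 at 117.0, mnr-1 at 8.812, eff-1 at 4.539 and lect-2 at 3.212. In pan-neuronal libraries sax-7 led at 144.7, followed by kpc-1 at 130.2, dma-1 at 42.68 and mnr-1 at 41.32. sax-7 was first in all 9 groups other than PVD. The order in PVD did not change with the length of the longest transcript or with the deposited gene length.

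The 5 neuron-side genes together took 86.93% of the summed level per kilobase of all 8 genes in PVD 62 and 91.24% in PVD 63. In pan-neuronal libraries the share was 53.57% to 66.11%, with pan-neuronal 1 the highest, and in all-cell libraries 21.59% to 38.74%. Of the other types AVE came nearest at 46.66% to 55.91%, AVG had 30.27% to 52.74%, and the remaining 5 types lay between 24.06% and 48.62%. The ligand sum was 151.1 and 173.2 RPKM in PVD, against 143.7 RPKM in pan-neuronal 1 and 207.5 to 220.5 RPKM in the other 4 pan-neuronal libraries, so that both PVD libraries lay above the first and below the rest. The neuron-side sum in PVD, 1005 and 1805, was above that of any other library (at most 352.4, in AVG).

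**Figure D3:**
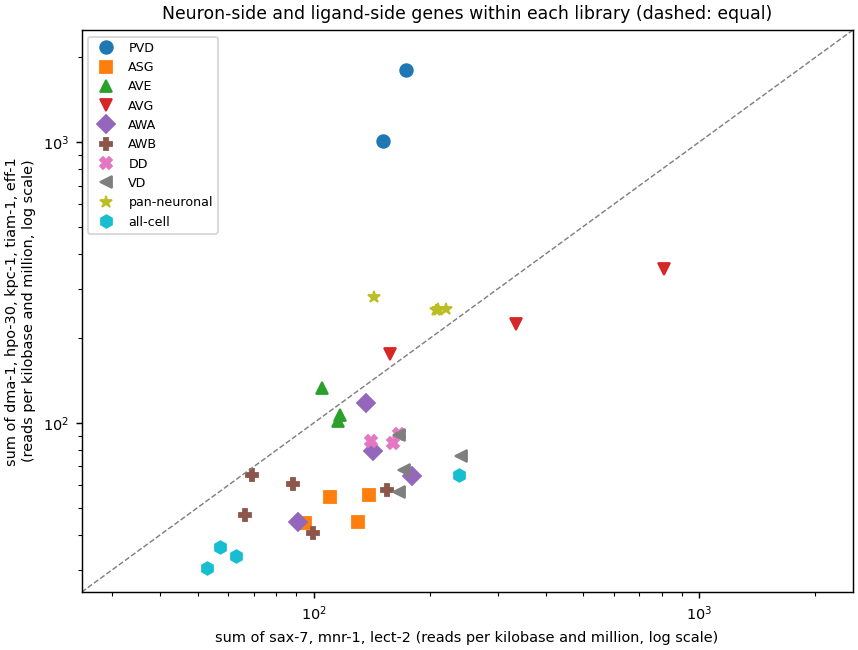
Summed RPKM of the 5 neuron-side genes against that of the 3 ligand genes in each of 37 libraries, both on log scales, with a dashed line where the sums are equal. PVD libraries lie at 1005 and 1805 on the vertical axis, and most libraries of the other sorted types lie below the line.

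Other genes of PVD dendrite formation were taken from 6 lists and described by the same contrast, PVD against pan-neuronal libraries. Over all tested genes, 8.85% were called higher and 13.8% lower in this contrast, the background for the counts of each list. Of 7 transcription factors listed for PVD fate, whether they promote or oppose it, 3 were higher and 2 lower. The median log2 difference was 0.001, and it was -0.458 without PVD 62 and 0.19 without PVD 63. Among them, mec-3, egl-46 and unc-86 also belong to the 11 PVD markers above. mec-3, the LIM homeobox gene required for PVD branching, averaged 457.7 CPM in PVD and 47.7 CPM in pan-neuronal libraries (3.25 ± 0.54, adjusted p = 4.748e-05), egl-46, a zinc finger factor, 815.5 and 51.63 CPM (3.97 ± 0.85, adjusted p = 0.0008901), and the Hox gene lin-39 643.0 and 132.1 CPM (2.27 ± 0.44, adjusted p = 0.0003093). zag-1, a zinc finger homeobox factor, averaged 40.79 CPM in PVD and 486.4 CPM in pan-neuronal libraries. ahr-1, the aryl hydrocarbon receptor gene, had 1 count in PVD and 593 counts in pan-neuronal libraries. Counts were pooled in each group and scaled by library totals and TMM factors. The scaled ratio of pan-neuronal to PVD was 45.69, with an exact 95% counting interval of 8.17 to 1808. unc-86, a POU factor that acts upstream of mec-3, averaged 106.4 CPM in PVD and 199.4 CPM in pan-neuronal libraries (-0.93 ± 0.52, adjusted p = 0.2041).

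Of 12 tested actin and Rac regulators out of 13 listed, 1 was higher and 0 lower by edgeR (median 0.022; at an unadjusted p under 0.05, 2 higher and 1 lower, and by DESeq2 1 lower; with the 2 groups fitted alone, 2 higher and 1 lower). The higher gene was the actin gene act-4, at 8828 CPM in PVD and 2354 CPM in pan-neuronal libraries; reads of near-identical actin genes could be split by the counting, and without PVD 63 it was not called. The Rac gene ced-10 averaged 90.85 CPM in PVD and 102.1 CPM in pan-neuronal libraries. The WAVE complex genes wve-1 and gex-3 averaged 50.96 and 61.23 CPM and 85.74 and 65.68 CPM, in PVD first. None of these genes passed the test. Over all tested genes, 8.85% were called higher and 13.8% lower.

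Of 20 genes for secretory traffic, protein folding in the endoplasmic reticulum and dendritic transport, 3 were higher and 1 lower (median 0.223). bicd-1, a dynein adaptor, averaged 67.67 CPM in PVD and 8.282 CPM in pan-neuronal libraries (3.04 ± 0.54, adjusted p = 0.0001141), the stress kinase gene pek-1 78.08 and 19.16 CPM (2.04 ± 0.43, adjusted p = 0.0007658) and the dynein heavy chain gene dhc-1 865.7 and 294.4 CPM (1.55 ± 0.38, adjusted p = 0.003335). xbp-1, a transcription factor of the unfolded protein response, was lower at 726.9 CPM in PVD and 3009 CPM in pan-neuronal libraries (-2.06 ± 0.51, adjusted p = 0.003329). Its upstream kinase gene ire-1 averaged 52.43 and 37.28 CPM (0.50 ± 0.33, adjusted p = 0.2875). Without PVD 62 the counts of this list were 1 higher and 0 lower, and with the 2 groups fitted alone 7 higher and 4 lower.

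Of 5 netrin and self-avoidance genes, 2 were higher and 1 lower (median 0.149). The lamellipodin homologue mig-10 averaged 806.9 CPM in PVD and 217.9 CPM in pan-neuronal libraries (1.88 ± 0.36, adjusted p = 0.0002986) and the netrin receptor gene unc-5 347.0 and 123.8 CPM (1.47 ± 0.44, adjusted p = 0.0147). The netrin gene unc-6 was lower, at 17.55 CPM in PVD and 279.0 CPM in pan-neuronal libraries (-3.99 ± 0.61, adjusted p = 1.776e-05), and its receptor gene unc-40 averaged 278.6 and 249.1 CPM. Without PVD 63, 1 gene of this list was higher. aff-1, the second fusion protein gene, had 2 counts in PVD and 87 counts in pan-neuronal libraries. The ratio of pan-neuronal to PVD, pooled and scaled as for ahr-1, was 3.352 with an exact 95% counting interval of 0.9005 to 28.12.

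Of 13 tested skin, muscle and matrix genes, out of 14 listed, 0 were lower in PVD than in pan-neuronal libraries by edgeR, by DESeq2 or at an unadjusted p under 0.05. At an unadjusted p under 0.05, 9 were higher. By edgeR and by DESeq2, 8 were higher, and the median log2 difference was 1.667. They included the laminin subunits lam-1 (95.3 CPM in PVD and 17.62 CPM in pan-neuronal libraries), epi-1 (132.9 and 28.67 CPM) and lam-2 (93.65 and 25.11 CPM), and mup-4, a transmembrane protein of the skin's attachment to muscle (182.2 and 50.97 CPM). Without PVD 62 none of the 13 was called and the median was 0.866; without PVD 63, 6 were, and without single pan-neuronal libraries 3 to 6. With the 2 groups fitted alone 12 were higher. The 12 hypodermis markers, all with counts in both groups, summed to 2485 and 1519 CPM in PVD 62 and PVD 63. In pan-neuronal libraries they summed to 349.2 to 686.3 CPM, and their part in these differences was not tested. High sums of the 13 genes were not particular to PVD. Their mean was 7532 CPM in PVD, 14700 in AVG, 12510 in VD, 9703 in DD and 7206 in AWB. It was 5463 CPM in AVE, 4393 in AWA, 3884 in ASG and 4151 in pan-neuronal libraries. In PVD, spc-1 and unc-70 held 2579 and 2296 CPM of the sum.

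**Figure D4:**
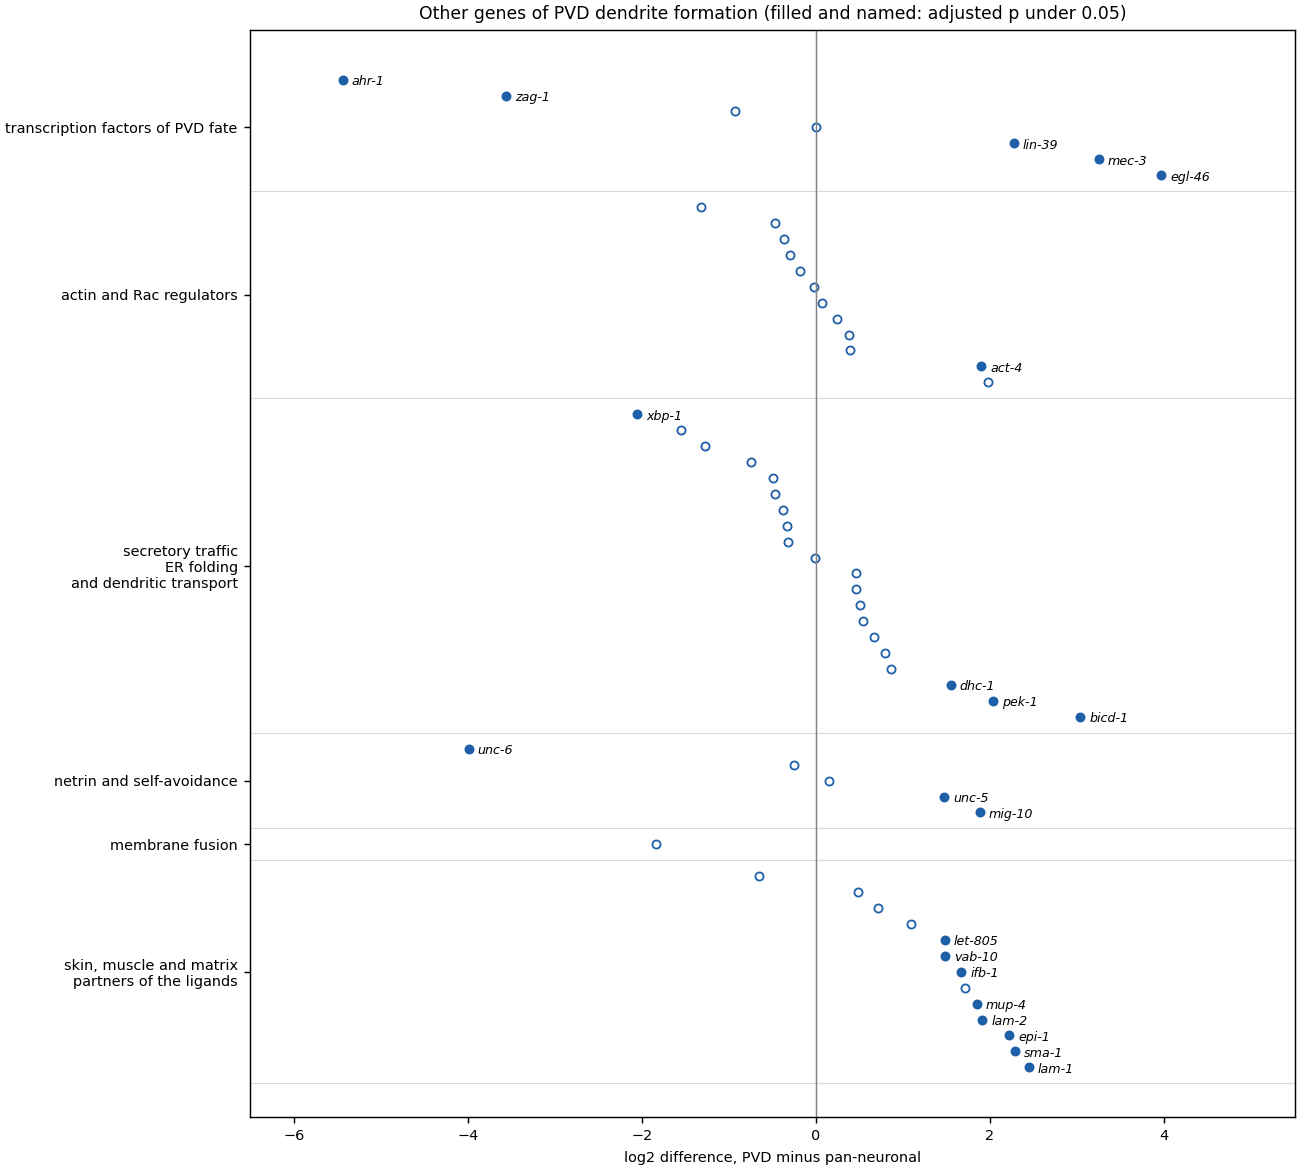
Log2 difference of PVD from pan-neuronal libraries for each tested gene of the 6 lists, each list in a band of its own and sorted by value; filled and named points have an adjusted p under 0.05. Of the skin, muscle and matrix list 8 points are filled, all above 0, and unc-6, zag-1 and ahr-1 are lowest.

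Against all-cell libraries, pan-neuronal libraries had 6 of 7 of the transcription factors higher and 0 lower, also at an unadjusted p under 0.05 and by DESeq2 (median 3.678), 4 of 5 netrin genes higher and 1 lower (2.114), 10 of 20 secretory and transport genes higher and 2 lower (0.838) and 4 of 12 actin and Rac genes higher and 1 lower (0.091). Over all tested genes, 32.1% were called higher and 26.9% lower in this contrast. With library totals alone the secretory and transport list had 8 higher and 7 lower, and the actin and Rac list 3 higher and 4 lower. Of the skin, muscle and matrix list 2 were higher and 10 lower (median -1.896); the higher ones were spc-1 and unc-70, the spectrins of neurons and skin.

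The genes whose pattern over the 10 group means was most like each of the 8 were found by the Pearson correlation of log2(CPM + 1) among 10290 genes. These correlations rest on 10 group means that share libraries and depth between genes. Nearest to dma-1 were dhrr-1 (0.956), hpo-30 (0.941) and gbb-2 (0.923), and nearest to hpo-30 were C50B8.5 (0.9503), nlp-66 (0.946) and M110.8 (0.943). nlp-66, a neuropeptide-like gene, averaged 720.7 CPM in PVD, against 50.85 CPM in pan-neuronal libraries and at most 4.328 CPM in any other type. Nearest to kpc-1 were mct-4 (0.966), WBGene00197824 (0.954) and cnb-1 (0.939). Of these, mct-4 and WBGene00197824 were highest in PVD and AVG. The third, cnb-1, averaged 342.0 CPM in PVD, 335.3 CPM in AVG and 336.7 CPM in pan-neuronal libraries. Nearest to tiam-1 were C25F6.30 (0.920), mig-10 (0.909) and Y56A3A.28 (0.909).

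Among the remaining genes, eff-1 was nearest to acs-1 (0.930), C18B2.3 (0.926) and F11C1.4 (0.916), all highest in pan-neuronal libraries. sax-7 was nearest to C43H6.4 (0.959), gck-3 (0.949) and the kinesin gene unc-104 (0.948), all highest in AVG. The AVG mean of sax-7 came from libraries at 868.9, 2023 and 5010 CPM, and its likeness without AVG 45 was not tested. mnr-1 was nearest to acr-16 (0.957), exos-7 (0.953) and F26F4.5 (0.943); acr-16, an acetylcholine receptor subunit gene of body-wall muscle, averaged 76.91 CPM in AVE and 3.217 CPM in PVD, against 69.26 CPM in pan-neuronal and 113.4 CPM in all-cell libraries. The all-cell mean of mnr-1 came from libraries at 243.2, 54.97, 19.16 and 24.63 CPM, and its likeness without all-cell 27 was not tested. lect-2 was nearest to pqm-1 (0.936), faxc-2 (0.918) and lgc-49 (0.907). Within the 8 genes, dma-1 and hpo-30 were most alike over the groups at 0.941, kpc-1 and tiam-1 followed at 0.78, and sax-7 and mnr-1 were most opposed at -0.548.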

How the data were processed

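Raw whole-number counts per gene, 1 column per library, were deposited by the authors; STAR, SAMtools and featureCounts were used, per the submitters' processing notes. Their versions, strand use and treatment of duplicate reads are not stated. All 37 libraries entered 1 quasi-likelihood fit (edgeR 4.0.16 in R 4.3.3) with TMM factors, filterByExpr by group and 24 contrasts, adjusted by Benjamini-Hochberg over 15181 tested genes and called at an adjusted p under 0.05. The fit was tested on simulated data. Alternatives were DESeq2 1.42.0 size factors and its Wald test, library totals alone, no filter, 34 mitochondrial and rRNA genes left out, compared groups fitted alone, each library left out in turn, and other gene lengths, of which the deposited one was added after seeing the data. Exon lengths and positions came from the WBcel235 annotation (30584 genes matched by identifier); 27849 had a symbol. The labels do not state whether libraries of a group are separate cultures, so p-values measure only spread among these samples, which may be technical. Library pairs of a group differed by 2.446 to 100.616 chi-square units per degree of freedom, so none were merged. Labels give no batch. Intervals and floors cover counting error only. The members and lists were chosen with earlier results of these data known. Named were the 8 genes, the 3 genes most like each in pattern (at least 20 CPM in a group) and up to 6 called genes a list with at least 20 CPM; further genes named were chosen after their values were seen. unc-52 and opt-3 were not analysed here.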

Additional observations from a re-analysis of the deposited data

Results flagged for a closer look

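Of 48 combinations of a gene and a group of 4 or 5 libraries, 10 had 1 library far from the others; chance flags about 1 in 20 groups. In single types, dma-1 was 23.9 CPM in AWB 53 (10.67 to 14.13 in the other AWB libraries), kpc-1 was 137.1 CPM in ASG 14 (93.62 to 99.15) and 93.54 CPM in AWB 50 (67.57 to 70.64), and tiam-1 was 35.2 CPM in ASG 13 (9.619 to 12.04). In VD, eff-1 was 38.51 CPM in VD 78 (25.99 to 26.49) and sax-7 was 1285 CPM in VD 81 (836.2 to 910.7). Pan-neuronal 1 stood apart upwards in kpc-1, at 446.1 CPM (369.7 to 384.3), and downwards in sax-7, at 588.9 CPM (954.2 to 1007). All-cell 27 stood apart upwards in mnr-1, at 243.2 CPM (19.16 to 54.97), and downwards in lect-2, at 2.507 CPM (4.433 to 4.829).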

How the results depend on the processing

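No paired analysis was possible because the groups share no replicate numbers. Fitting the compared groups alone gave 5569 genes called in PVD against pan-neuronal libraries, against 3436, and 20 members called in the contrasts of each type with all-cell libraries, against 31; the cause was not tested. Leaving out single libraries gave 965 (without PVD 62) to 3146 genes called in PVD against pan-neuronal libraries and 8140 to 9067 in pan-neuronal against all-cell libraries, against 8966. Members called then ranged from 4 to 6 in PVD against pan-neuronal libraries, 7 to 8 in pan-neuronal against all-cell, 35 to 42 in the other types against pan-neuronal, 26 to 32 in the types against all-cell and 26 to 28 in PVD against the other types. The mnr-1 difference of pan-neuronal from all-cell libraries ran from -0.51 to 1.245 when single libraries were left out, against -0.139, and reversed without all-cell 27. With library totals alone, 71 of 80 group means stayed within 1 SD of their value. With 2 PVD libraries of low depth, genes read at few counts there, such as lect-2 and eff-1, are limited by counting.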
